A study of Sus scrofa with 105 samples.

Results

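ssc-miR-200b, ssc-miR-141 and ssc-miR-429 of the miR-200 family and ssc-miR-182, ssc-miR-183 and ssc-miR-96-5p of the miR-183 cluster were measured in a small RNA data set of piglet brain. They are 6 of 448 miRNAs, and each matched 1 of the 542 entries of the count table by its mature name. The members were selected on their pattern between frontal lobe libraries, so their levels there, their covariation there and their difference between regions are given as descriptions with no test. The differences between the study's groups and the values in the hippocampus and amygdala were tested where the design allows it.

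The study sequenced small RNA from the brains of female pigs (Sus scrofa) in the piglet stage, stored fixed in paraffin, after diffuse traumatic brain injury. The 105 libraries came from 53 animals, told apart by the code in each library's name, and 52 animals gave both the frontal lobe and the hippocampus with the amygdala. Sham or naive animals, with a survival of 0 to 8 days, served as controls. Injured animals were studied 1 day or 1 week (6 to 8 days) after injury. A further injured group, studied at 30 hours, had received CsA (cyclosporine A, which inhibits calcineurin) intravenously, 20 mg/kg/day, as a loading dose at 6 hours followed by an infusion of 24 hours. The frontal lobe had 18 sham, 10 injured 1 day, 15 injured 1 week and 9 CsA libraries, and the hippocampus and amygdala had 18, 10, 15 and 10. Tissue blocks of this kind are bulk samples, in which fewer cells of a type and less RNA per cell cannot be told apart.

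The miR-200 family is a set of miRNAs with related seeds that are abundant in epithelial cells, where they repress the transcription factors ZEB1 and ZEB2 and with them the loss of epithelial character. Its members are transcribed from a pair of loci, one with miR-200b and miR-429 and another with miR-141. In the nervous system the family is best known from the olfactory epithelium and from neurogenesis. The miR-183 cluster, which holds miR-183, miR-96 and miR-182 on a shared transcript, is known for its high level in sensory cells such as photoreceptors, hair cells, olfactory neurons and neurons of sensory ganglia. In the pig annotation of RefSeq (Sscrofa11.1) MIR183, MIR96 and MIR182 are direct neighbours between UBE2H and NRF1, and MIR429 lies beside TTLL10.

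Library totals lay between 98008 and 12703535 counts (median 7257404), and 3 sham libraries were shallow, with 98008 and 678907 counts in the frontal lobe and 401354 in the other region. Levels are given as counts-per-million (CPM) with TMM scaling over all libraries. In a frontal lobe library of median depth a count of 0 allows a level of up to 0.416 CPM (3 counts), and in the shallowest one up to 46.1 CPM. Such limits cover counting error only. As a check that the tissue was brain, 6 neuronal miRNAs were summed, of which miR-9-1 was the highest. Their summed level lay between 31097 and 48680 CPM in every frontal lobe library. In the hippocampus and amygdala it lay between 26177 and 45045 CPM, so the sum does not check the region label.

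The 3 miRNAs of the miR-200 family were detected in most frontal lobe libraries at levels that spread over several orders of magnitude. Over the 52 libraries ssc-miR-200b ran from 0 to 247 CPM with a median of 16.6. It was at 0 in 8 libraries. ssc-miR-429, which is transcribed from the same locus, was higher, with a median of 60.5 CPM, a highest value of 660 CPM and 3 libraries at 0. ssc-miR-141, from the other locus of the family, had a median of 17.2 CPM and a highest value of 163 CPM, and 6 libraries were at 0.

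The miR-183 cluster reached the highest levels of the set. ssc-miR-182 had a median of 112 CPM and a highest value of 1164 CPM over the same libraries. ssc-miR-183 had a median of 83.3 CPM and a highest value of 775 CPM. Each of them was at 0 in 1 library, which was a sham library of 678907 counts where 3 counts stand for 5.07 CPM. ssc-miR-96-5p, the least abundant member, had a median of 4.82 CPM, a highest value of 64.6 CPM and 16 libraries at 0.

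The frontal lobe libraries fell on both sides of a gap. On the log2(CPM + 1) scale the widest step between neighbouring libraries in ssc-miR-429 was 1.40, against 0.66 for the next widest, and it lay between 9.56 and 26.9 CPM. It left 30 libraries above and 22 below. The widest step of ssc-miR-200b (2.19, next 1.02) and that of ssc-miR-183 (1.42, next 0.58) also left 30 above and 22 below. That of ssc-miR-182 lay elsewhere, between 0 and 1.49 CPM, and left 51 above and 1 below, that of ssc-miR-96-5p left 28 and 24, and that of ssc-miR-141 left 26 and 26. The split by ssc-miR-429 was drawn after the values were seen and is used only to describe the libraries.

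All 6 members were separated by that split with no overlap. Below the gap ssc-miR-200b had a highest value of 1.78 CPM, and above it a lowest value of 11.7 CPM. For ssc-miR-182 these values were 25.7 and 56.0 CPM, and for ssc-miR-183 they were 15.1 and 42.1 CPM. ssc-miR-141 had 5.07 CPM as its highest value below and 6.64 CPM as its lowest above, a narrow margin. ssc-miR-96-5p reached 0.788 CPM below the gap and was at 1.23 CPM or more above it. The summed level of the 6 members lay between 2.30 and 54.3 CPM in the 22 lower libraries (median 10.1) and between 146 and 2905 CPM in the 30 upper ones (median 1073).

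**Figure D1:**
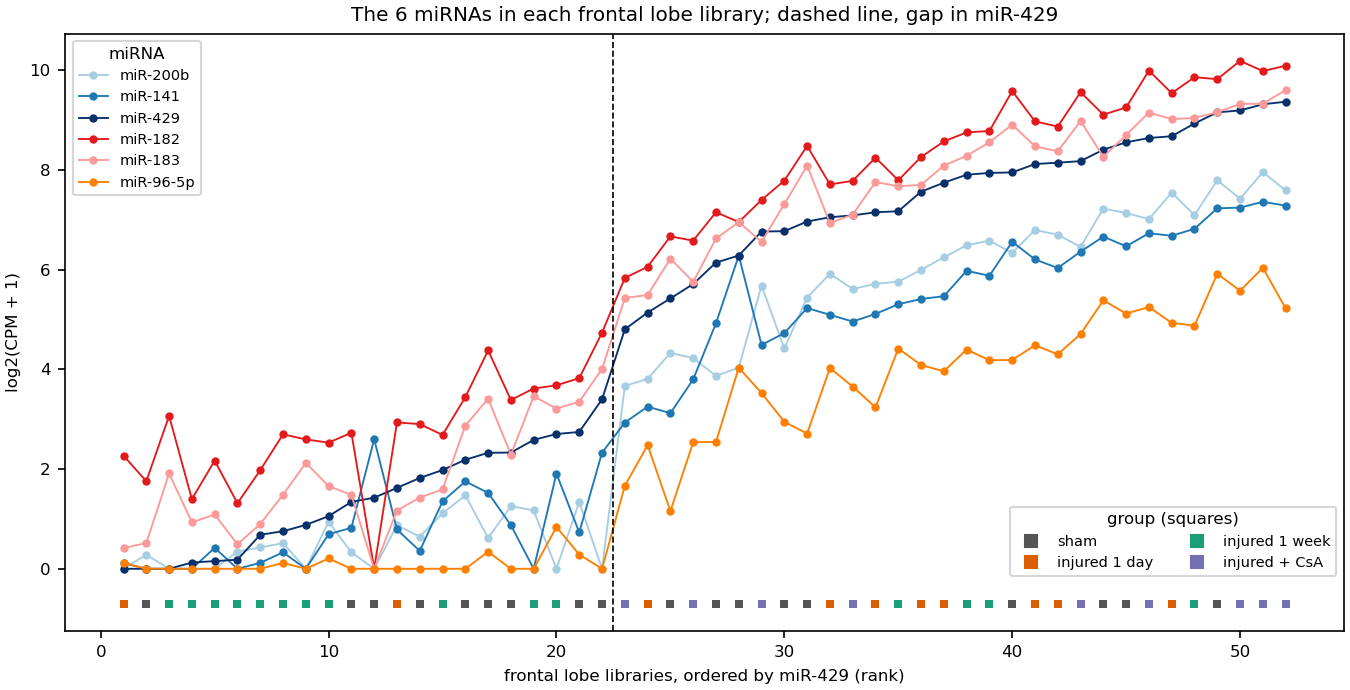
The level of each of the 6 miRNAs, as log2(CPM + 1) on the y axis, in the 52 frontal lobe libraries ordered by miR-429 on the x axis; coloured squares give the group of each library and the dashed line marks the gap in miR-429 between 9.56 and 26.9 CPM. Of the 52 libraries 22 lie to the left of the gap and 30 to its right, and no line has a point on the left as high as its lowest point on the right.

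Above the gap the members kept nearly constant proportions while their level moved. There the levels of the 6 members had SDs of 1.22 to 1.37 on the log2 scale over the 30 libraries. The log2 ratio of ssc-miR-182 to ssc-miR-429, by contrast, had an SD of 0.28, and that of ssc-miR-183 to ssc-miR-429 an SD of 0.34. The median ratio to ssc-miR-429 was 1.81 for ssc-miR-182 (range 1.54 to 3.11) and 1.28 for ssc-miR-183 (range 0.864 to 2.18). Within the miR-200 family, ssc-miR-200b stood at a median of 0.365 of the level of ssc-miR-429 (range 0.188 to 0.467) and ssc-miR-141 at 0.250 (range 0.184 to 1.00). ssc-miR-96-5p was the most variable relative to ssc-miR-429, with a median ratio of 0.0824 and an SD of 0.52 on the log2 scale. The highest ratios of ssc-miR-141 and ssc-miR-96-5p came from the sham library of 98008 counts, in which all 6 members together had 28 counts.

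The order of the levels above the gap was the same in nearly every library. ssc-miR-182 exceeded ssc-miR-183 in 29 of 30 libraries, ssc-miR-183 exceeded ssc-miR-429 in 27, and ssc-miR-429 exceeded ssc-miR-200b in 30. ssc-miR-200b exceeded ssc-miR-141 in 26, and ssc-miR-141 exceeded ssc-miR-96-5p in 30. miRNAs are of nearly equal length, but ligation and amplification can favour some over others, so an order of counts need not be an order of molecules.

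Group medians of the ratios to ssc-miR-429 above the gap were as follows. The median ratio of ssc-miR-182 to ssc-miR-429 was 2.03 in the 9 upper sham libraries, 1.80 in the 8 upper libraries at 1 day, 1.80 in the 4 upper libraries at 1 week and 1.84 in the 9 CsA libraries. Their ranges overlapped. That of ssc-miR-200b to ssc-miR-429 was 0.342, 0.373, 0.372 and 0.345 in the same order, again with overlapping ranges. That of ssc-miR-183 moved more, from 1.46 in sham libraries to 1.27 at 1 day, 1.36 at 1 week and 1.09 with CsA, with overlapping ranges. Below the gap single libraries held too few counts for a ratio. Summed over the 22 lower libraries, ssc-miR-200b had 74 counts and ssc-miR-429 had 230, a ratio of 0.322, close to the 0.361 of the summed counts of the upper libraries. ssc-miR-182 had 804 counts there, 3.50 times those of ssc-miR-429, against 1.80 times above the gap. ssc-miR-96-5p had 7 counts, 0.0304 of those of ssc-miR-429, against 0.0868 above the gap.

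Because the split separated all 6 members, correlations are given within each side of the gap. Whether the sides are separate clusters was not tested. All values share the division by the library total. Over the 30 upper libraries Pearson's r of log2(CPM + 1) had a median of 0.934 over the 15 pairs of members (range 0.858 to 0.986), and Spearman's rho a median of 0.940 (range 0.889 to 0.985). The highest r was that of ssc-miR-182 with ssc-miR-183 (0.986, rho 0.985), which share a transcript, and the next that of ssc-miR-429 with ssc-miR-182 (0.977, rho 0.970), which do not. Pairs of members from 1 family or cluster had a median r of 0.906 (6 pairs) and pairs across the 2 sets had 0.934 (9 pairs). Without the 2 libraries farthest from the median, the lowest r of the 15 pairs was 0.822. In the 22 lower libraries the median r was 0.364 (range -0.0619 to 0.909), and the highest was again that of ssc-miR-182 with ssc-miR-183 (rho 0.904). Most of the pairs there rest on a few counts.

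The frontal lobe levels of the 4 groups overlapped, and the groups held different numbers of libraries on each side of the gap. Above it were 9 of 18 sham libraries, 8 of 10 at 1 day, 4 of 15 at 1 week and 9 of 9 with CsA. Without the 2 shallow frontal lobe libraries the sham count was 8 of 16. These counts were not tested, because the split was drawn from the values themselves.

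Among the miR-200 family, ssc-miR-200b was at 0 CPM in its lowest sham library, 7.69 in the median one and 221 in the highest. In animals at 1 day these values were 0, 61.1 and 186 CPM. At 1 week they were 0, 0.428 and 136 CPM, and with CsA they were 11.7, 86.8 and 247 CPM. No CsA library had the low values that each other group had, and the highest values of the 4 groups were all above 100 CPM.

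ssc-miR-429 had the same layout, with 0, 25.7 and 569 CPM as lowest, median and highest value in sham libraries and 0, 165 and 408 CPM at 1 day. At 1 week it had 0, 1.08 and 487 CPM, and with CsA 26.9, 288 and 660 CPM. The 4 libraries at 1 week above the gap had 143, 238, 245 and 487 CPM, and the other 11 had at most 5.51 CPM. ssc-miR-141 had medians of 6.38 CPM in sham, 37.6 CPM at 1 day, 0.338 CPM at 1 week and 81.1 CPM with CsA.

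In the miR-183 cluster ssc-miR-182 had 0, 63.2 and 903 CPM as lowest, median and highest value in sham libraries. At 1 day it had 3.82, 304 and 743 CPM. At 1 week it had 1.49, 5.48 and 928 CPM, and with CsA 56.0, 754 and 1164 CPM. ssc-miR-183 followed it, with medians of 44.3 CPM in sham, 211 CPM at 1 day, 2.76 CPM at 1 week and 504 CPM with CsA. ssc-miR-96-5p had medians of 0.749, 14.9, 0 and 25.1 CPM in the same order. In each of the 6 members the group medians had the same order, CsA above 1 day above sham above 1 week, and the ranges of all groups overlapped.

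**Figure D2:**
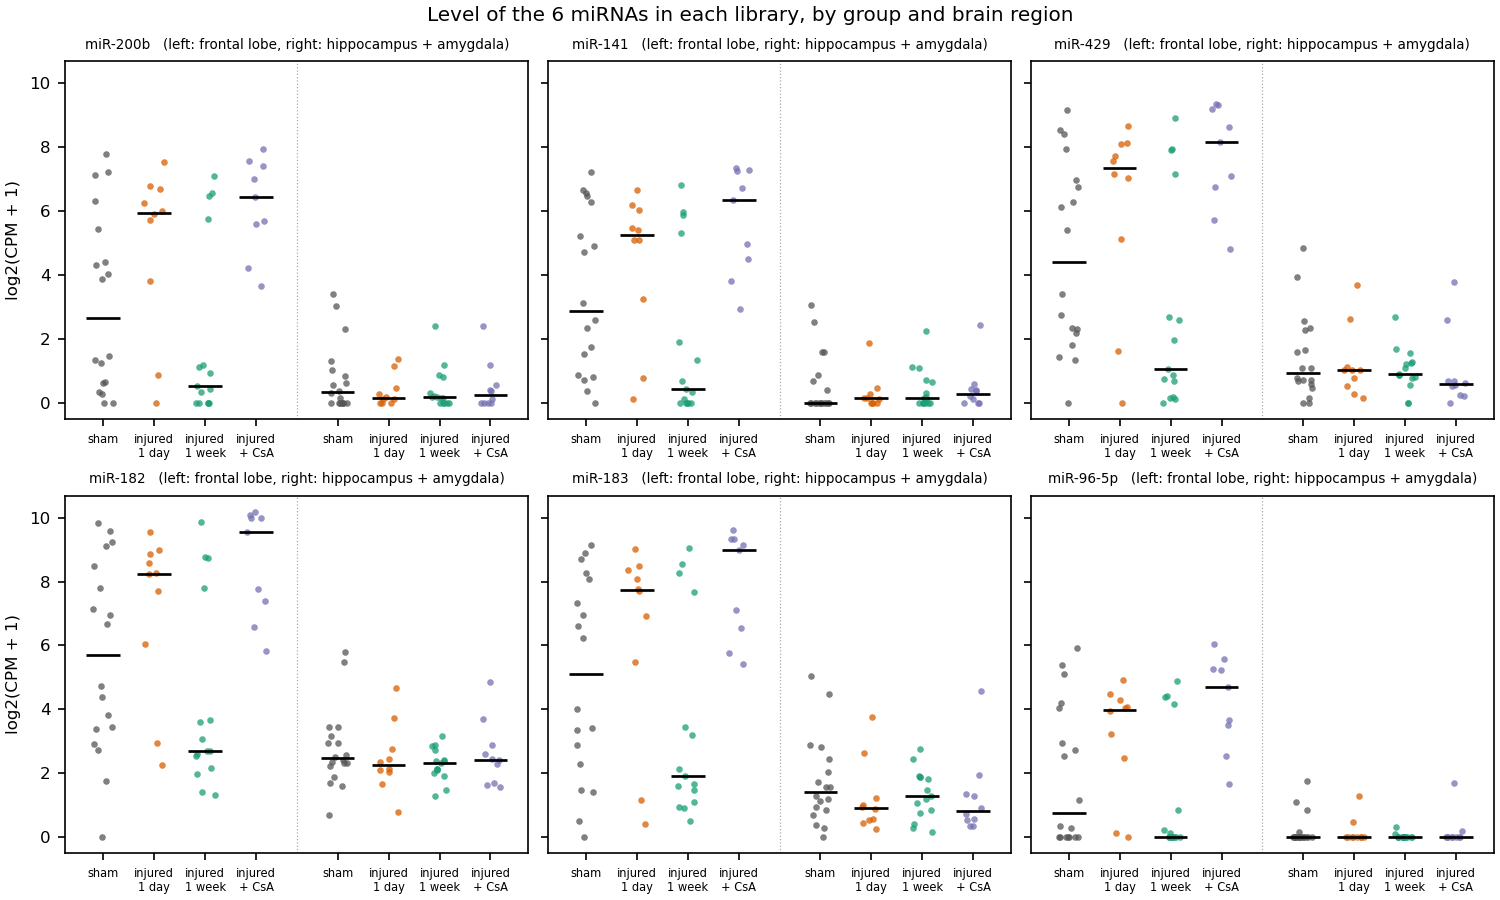
The level of each of the 6 miRNAs, as log2(CPM + 1), in every library, by group, with the frontal lobe on the left of each panel and the hippocampus with the amygdala on the right; points are libraries and black lines are group medians. In the frontal lobe the points of sham, 1 day and 1 week reach from 0 or near it to high levels, no CsA point is among the lowest, and in the hippocampus and amygdala nearly all points are low.

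Whether injury, time or CsA went with a change of these miRNAs was tested with edgeR's quasi-likelihood test over the 284 miRNAs past the filter in the frontal lobe, which all 6 members passed. After injury at 1 day 0 of 6 members passed the test against sham, where 44.7% of all miRNAs tested did. Their log2 fold changes lay between 0.21 (ssc-miR-96-5p) and 0.65 ± 1.02 (SE, ssc-miR-200b), and the smallest adjusted p was 0.617. Between 1 week and sham 0 of 6 members passed, and 0% of all miRNAs tested. The members' log2 fold changes lay between -0.89 and -0.59, with a smallest adjusted p of 0.962.

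With CsA against sham, where 34.2% of all miRNAs tested passed, 0 of 6 members did. The point estimates were the largest of the comparisons with sham, between 1.25 ± 0.98 (SE) for ssc-miR-141 and 1.5 ± 1.07 for ssc-miR-429, with edgeR adjusted p between 0.216 and 0.302. Between CsA and injured animals at 1 day 0 of 6 members and 0% of all miRNAs tested passed. The members' log2 fold changes there lay between 0.70 ± 1.2 (ssc-miR-200b) and 1.08 ± 1.13 (ssc-miR-182). Between 1 week and 1 day, where 35.9% of all miRNAs tested passed, 0 of 6 members did. They lay between -1.38 ± 1.06 (ssc-miR-200b) and -1.09, with a smallest adjusted p of 0.292. No member had an unadjusted p under 0.05 in any of the 5 comparisons, and DESeq2 also called 0 of 6 in each. Over all miRNAs 19 (1 week and sham) and 12 (CsA and 1 day) had an unadjusted p under 0.05 where edgeR called 0, and DESeq2 called 1 and 0.

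The standard errors of the members were between 0.87 and 1.25 on the log2 scale. The number of members that passed depended on the scale. With limma on log2(CPM + 1), an alternative added after the data were seen, 5 of 6 members passed between CsA and sham, all but ssc-miR-141, with log2 differences of 2.29 to 3.03 and adjusted p of 0.0224 to 0.0496. It also called 4 of 6 members lower at 1 week than at 1 day (ssc-miR-141, ssc-miR-182, ssc-miR-200b and ssc-miR-429, with adjusted p of 0.0326 to 0.0488), and 0 of 6 in the other 3 comparisons. Of all 284 miRNAs limma called 108 between CsA and sham and 83 between 1 week and 1 day. It called 129 between 1 day and sham, and 0 between 1 week and sham and between CsA and 1 day. The members covary between frontal lobe libraries, so the members that passed are not separate results. edgeR compares group means of counts and limma group means of log values. The comparisons share their control samples.

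**Figure D3:**
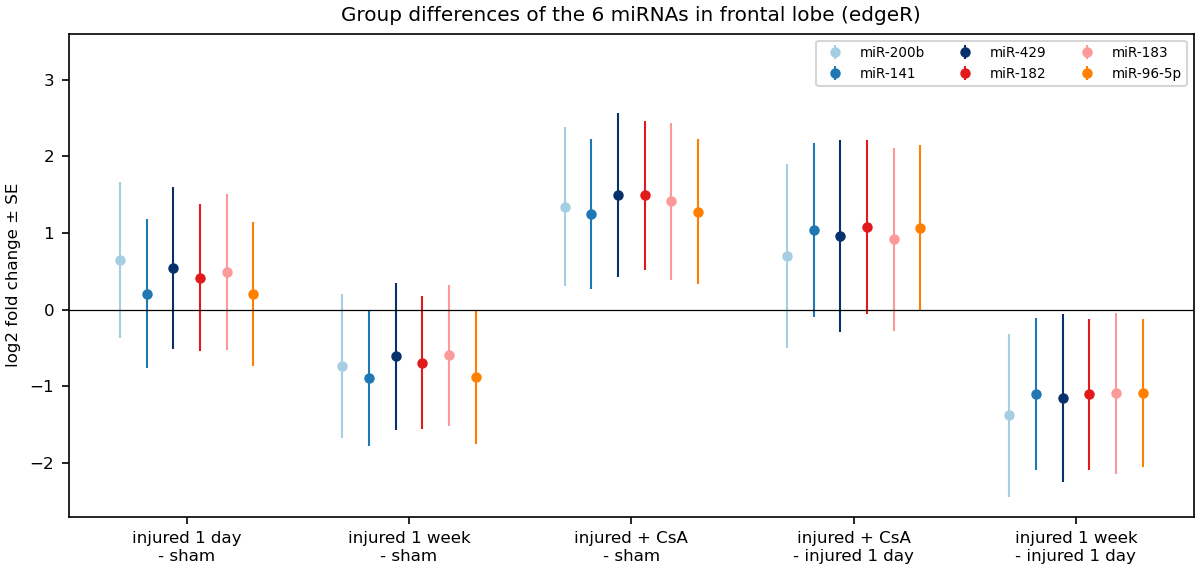
Log2 fold change of each of the 6 miRNAs in the 5 frontal lobe comparisons (points, edgeR) with its standard error (bars). In each comparison the 6 points lie close together beside standard errors of 0.87 to 1.25, and none passed the test.

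The number of libraries above the gap also moved with the animal code in the library names. Of frontal lobe libraries whose code starts with 10 or 11, 15 of 22 were above the gap, of those with 12 or 13, 12 of 15, and of those with 14 and later, 3 of 15. The CsA and 1 day groups hold codes of the first 2 kinds only, the 1 week group of the first and last only, and sham animals of each. Within sham animals the counts were 4 of 7, 4 of 5 and 1 of 6, and within the 1 week group they were 2 of 6 and 2 of 9. With the code start as a covariate in edgeR, the 6 log2 fold changes between 1 week and sham turned to between 0.04 and 0.71, and those between 1 week and 1 day came to between -0.0021 and 0.31. None passed the test in that fit, and limma was not run with this covariate. The labels do not say what the code start stands for, and its part in the levels was not tested.

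Some animals share the part of the code before the hyphen. There were 11 such codes in the frontal lobe, with 25 animals. In 4 of them all animals were above the gap, in 3 all were below, and in 4 they were on both sides. In 1 of the mixed codes, shared by a CsA animal and an animal at 1 day, the summed level was 451 CPM in one and 4.32 CPM in the other.

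In the hippocampus and amygdala the same miRNAs were low, and ssc-miR-200b, ssc-miR-141 and ssc-miR-96-5p were close to the limit of detection. ssc-miR-182 had a median of 4.23 CPM over the 53 libraries and ssc-miR-183 of 1.3 CPM. Medians were 0.832 CPM for ssc-miR-429, 0.145 CPM for ssc-miR-200b, 0.0944 CPM for ssc-miR-141 and 0 for ssc-miR-96-5p, of which 43 libraries had no count. A count of 0 allows up to 0.363 CPM in a library of median depth, so the levels of the last 3 were at or under that limit in most libraries. ssc-miR-182, ssc-miR-183 and ssc-miR-429 passed the filter for testing there, and the other 3 members did not.

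In this region 4 libraries stood above the rest, with 12.0 to 27.5 CPM of ssc-miR-429 against at most 5.39 CPM in the other 49. They came from 1 animal at 1 day, 1 CsA animal and 2 sham animals. The 4 also had the highest ssc-miR-182 (24.3, 27.8, 43.7 and 54.8 CPM) and the highest ssc-miR-183 (12.4, 21.5, 23.0 and 32.2 CPM). Their summed counts gave ratios to ssc-miR-429 of 1.92 for ssc-miR-182, 1.28 for ssc-miR-183 and 0.273 for ssc-miR-200b. In the upper frontal lobe libraries these were 1.80, 1.17 and 0.361. The 4 libraries differed among themselves, from 1.59 to 3.83 for ssc-miR-182 and from 0.135 to 0.5 for ssc-miR-200b. Both ranges reach beyond those of the upper frontal lobe libraries (1.54 to 3.11 and 0.188 to 0.467). For ssc-miR-183 the range was 1.04 to 1.81, within the frontal one. The library with 54.8 CPM of ssc-miR-182 held 401354 counts in all, and its value rests on 23 counts.

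The covariation was tested within the 49 lower libraries of this region, which were set apart by ssc-miR-429 after the values were seen. These libraries come largely from the animals whose frontal lobe pattern led to the choice of the members. Of the 15 pairs, 6 passed at an adjusted p under 0.05 for both Pearson's r and Spearman's rho (permutation tests, 2-sided, adjusted over the 15 pairs). The strongest were the 3 pairs among ssc-miR-429, ssc-miR-182 and ssc-miR-183. For ssc-miR-429 with ssc-miR-183, which lie at different loci, r was 0.711 and rho 0.692, each with p = 1e-05, the smallest that 100000 permutations can give, and r was 0.685 without the 2 libraries farthest from the median. For ssc-miR-182 with ssc-miR-183 r was 0.634 (rho 0.584) and for ssc-miR-429 with ssc-miR-182 it was 0.636 (rho 0.552). ssc-miR-200b also passed with ssc-miR-429 and ssc-miR-183, and ssc-miR-141 with ssc-miR-183, with r of 0.437 to 0.539. The 5 pairs that contain ssc-miR-96-5p did not pass. Such values are not rare among miRNAs in these libraries, which share the division by the total and hold 4 groups. A permutation p is set against no relation at all, so it shows nothing particular to the members. Of all 41905 pairs of the 290 miRNAs tested, 12.3% had an r and a rho at least as high as the lowest of the 6 passing pairs, and 4.10% at least as high as the lowest of the 3 strongest. ssc-miR-183, which is in 4 of the 6 pairs, was itself lower in deeper libraries (r -0.374, rho -0.414), and the part of depth in these pairs was not tested.

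Group differences in this region did not pass the test for any of the 3 members that could be tested. Between 1 day and sham 48.6% of the 290 miRNAs tested passed and 0 of 3 members did. Between CsA and sham (20.3% of all), CsA and 1 day (0%), and 1 week and 1 day (29.3%) 0 of 3 members passed as well. Between 1 week and sham, where 0.345% of all miRNAs passed, the members were lower at 1 week by point estimate. Their log2 fold changes were -1.05 ± 0.46 (SE) for ssc-miR-182 with an edgeR adjusted p of 0.695, -1.52 ± 0.73 for ssc-miR-429 and -1.3 ± 0.69 for ssc-miR-183, both with an adjusted p of 0.742. Without the sham library with 27.5 CPM of ssc-miR-429 these values were -0.54, -0.37 and -0.35. ssc-miR-182 and ssc-miR-429 had an unadjusted p under 0.05 there (0.0254 and 0.0426), no member had one in the other comparisons, and DESeq2 called 0 members. Single libraries decided a call: without the high library at 1 day, ssc-miR-183 was lower at 1 day than in sham (log2 fold change -1.81, adjusted p 0.0449), and without the high CsA library it was lower with CsA than in sham (-2.15, adjusted p 0.0315). The direction of both differences turned without the high sham library (0.13 and 0.49), and also with the log10 library total as covariate (0.042 and 0.21), so no direction is read from them.

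The frontal lobe had the higher level in the animals above the gap, and not as a rule in the others. All 6 members were higher in the frontal lobe in 30 of the 30 animals above it. These animals were set apart by their high frontal ssc-miR-429, so that count was largely fixed by the split. Above the gap frontal ssc-miR-429 was at least 26.9 CPM, and its highest value in the other region was 27.5 CPM. In the 22 animals below the gap ssc-miR-429 was higher in the frontal lobe in 9 (median difference in log2(CPM + 1) -0.19) and ssc-miR-183 in 13 (median 0.096). The summed level of the 6 members was higher in the frontal lobe in 43 of the 52 animals with both regions. Over the 52 animals the median of the difference in log2(CPM + 1), frontal lobe minus hippocampus and amygdala, was 4.91 for ssc-miR-183, 4.22 for ssc-miR-182 and 4.20 for ssc-miR-429. It ranged from -2.81 to 8.98 for ssc-miR-183. In the 9 CsA animals every member was higher in the frontal lobe in 9 of 9, with a smallest difference of 4.89 for ssc-miR-183. In the 15 animals at 1 week the number that were higher in the frontal lobe ran from 7 (ssc-miR-141 and ssc-miR-96-5p, median difference 0) to 12 (ssc-miR-183, median 0.76). The members were proposed for their frontal lobe pattern, so this difference has no test.

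**Figure D4:**
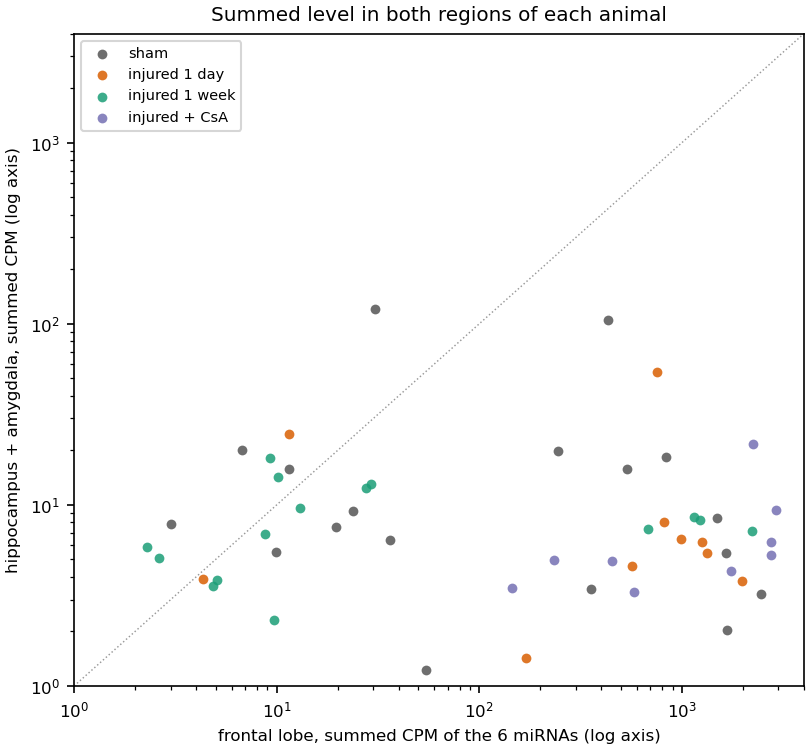
Summed CPM of the 6 miRNAs in the frontal lobe (x axis, log scale) against the hippocampus with the amygdala (y axis, log scale) for the 52 animals with both, coloured by group; the dotted line marks equal levels. Most points lie far below the line, and animals with a frontal level of 146 to 2905 CPM spread over the same low hippocampal levels as the others.

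An animal with high levels in the frontal lobe did not have them in the other region as a rule. Of the 30 animals above the gap in the frontal lobe, 28 were among the low libraries of the hippocampus and amygdala and 2 were not. Of these 2, 1 was the sham animal with the shallowest library of each region (98008 and 401354 counts). The 6 members together had 28 and 44 counts in its libraries. Of the 22 animals below the gap, 21 were low in both regions. The exception was a sham animal with 27.5 CPM of ssc-miR-429 in the hippocampus and amygdala and 5.70 CPM in the frontal lobe. Within each set of animals the levels in both regions were compared for each member, 12 relations in all. For ssc-miR-429 r was -0.139 (rho -0.136, permutation p 0.469 and 0.472) over the 30 animals and 0.273 (rho 0.144, permutation p 0.225 and 0.520) over the 22. The smallest adjusted p of the 12 was 0.540 for r and 0.896 for rho.

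Whether the difference from sham had another size in the frontal lobe than in the hippocampus and amygdala was tested in 1 fit over both regions with the animal as a block. ssc-miR-200b, ssc-miR-141 and ssc-miR-96-5p entered that fit only through the frontal lobe and lie at the floor in the other region, so their estimates are not given. For CsA 0 of the other 3 members passed, as did 0% of the 298 miRNAs tested. The estimates were 3.29 ± 1.26 (SE) for ssc-miR-182, 4.12 ± 1.48 for ssc-miR-183 and 3.99 ± 1.65 for ssc-miR-429 on the log2 scale, with edgeR adjusted p between 0.0904 and 0.123. All 3 had an unadjusted p under 0.05, as did 73 of all miRNAs. DESeq2 called these 3, with adjusted p of 0.00378 to 0.00418, and 29 of the 298 miRNAs. The members were selected on their pattern between frontal lobe libraries, whose values this fit also uses. No conclusion is therefore drawn from these calls. The fit lacks the high CsA library of the hippocampus and amygdala, whose animal has no frontal lobe library. It keeps the 2 high sham libraries of that region, and it was not repeated without each library in turn. ssc-miR-183 and ssc-miR-429 were low in the 10 CsA libraries there (medians 0.772 and 0.507 CPM). For 1 day and for 1 week 0 of the 3 members and 0% of all miRNAs passed, and their estimates ran from 1.96 to 2.5 at 1 day and from -1.92 to -1.48 at 1 week. Of all miRNAs 9 and 8 had an unadjusted p under 0.05 there, none of them a member, and DESeq2 called 0.

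Library totals had a median of 7519977 counts above the gap in the frontal lobe and 5595247 below it, with overlapping ranges, and the part of depth in the split was not tested. Of 18 relations between a member and the log10 library total, within the upper frontal, lower frontal and lower hippocampal libraries, 0 passed for both r and rho after adjustment. The closest was ssc-miR-183 over the 49 lower hippocampal libraries, at r = -0.374 (rho -0.414) with adjusted permutation p of 0.0699 and 0.0535, and r was -0.501 without the 2 farthest libraries. Without the shallow libraries 3 relations passed. ssc-miR-182 (r -0.600) and ssc-miR-183 (r -0.687) were lower in deeper libraries among the 21 remaining lower frontal ones. The third was ssc-miR-183 in the same 49 hippocampal libraries, whose r did not change and whose adjusted p moved only with the adjustment over the 18 relations.

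Among the other miRNAs past the filter, none followed the members closely in the frontal lobe. The mean of the standardized log2(CPM + 1) of the 6 members was used as a score over the 52 libraries, and the members' own rho with it was 0.952 to 0.992. Each member is part of that score, and the members were selected on their pattern in these libraries. Their distance from the other miRNAs is thus in part set by that choice. Among the 278 other miRNAs past the filter, the highest rho was 0.503, for miR-135, followed by let-7d-3p (0.503), miR-204 (0.498), miR-17-3p (0.487) and miR-15a (0.443). Within the upper and the lower libraries miR-135 had a rho of only 0.167 and 0.0864. miR-221-3p was the lowest at -0.627, then miR-503 at -0.545 and miR-489 at -0.497. In the hippocampus and amygdala (53 libraries, 287 others) miR-101 was the highest at 0.508 and miR-421-3p the lowest at -0.476, while the members' own rho was 0.434 to 0.912. Values in a library share its total, and these rho are a description with no p.

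**Figure D5:**
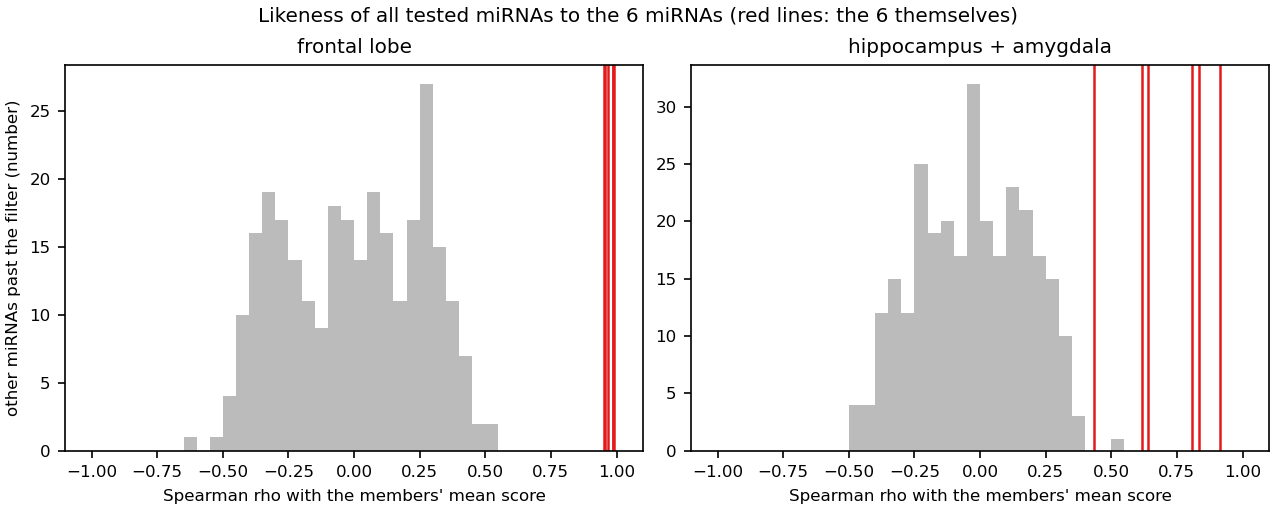
Number of other miRNAs past the filter (y axis) by their Spearman rho with the mean score of the 6 miRNAs (x axis), for the frontal lobe (left, 278 miRNAs) and for the hippocampus with the amygdala (right, 287); red lines are the 6 miRNAs themselves. In the frontal lobe the grey bars end at 0.503 and the red lines start at 0.952. Each of the 6 is part of the score and was selected on its frontal lobe pattern.

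Lists of miRNAs that mark other cell types had a rho between -0.334 and 0.312 with the members' score in the frontal lobe. miRNAs of stratified and glandular epithelium, among which the miR-200 family is usually counted, were summed over 9 entries; the sum was dominated by miR-31 and ran from 92.2 to 284 CPM in sham libraries, 207 to 297 CPM at 1 day, 113 to 308 CPM at 1 week and 144 to 326 CPM with CsA. Its rho with the members' score was 0.312 over the 52 frontal libraries, 0.392 in the 30 upper ones and -0.214 in the 22 lower ones. The narrow markers of that list were near 0: miR-205, a miRNA of squamous and basal epithelium, was at most 5.12 CPM, miR-192, a miRNA of gut, liver and kidney, at most 2.76 CPM, and miR-215 and miR-194b-3p were at 0 in all 52 libraries. miR-375, which is also a neuroendocrine miRNA, was at most 83.5 CPM. miR-203 was not analysed here.

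miR-204 and miR-34c are abundant in the choroid plexus and in ciliated epithelium. They summed to 46.1 to 334 CPM in the frontal lobe, with a rho of 0.105 with the members' score. miR-204 alone had 0.498 and miR-34c alone -0.242. Within the 30 upper and the 22 lower libraries miR-204 had a rho of 0.105 and -0.368. The sum of both reached 2469 CPM in the hippocampus and amygdala, where the members were low, with a rho of -0.0716. The neuroendocrine pair of miR-7 and miR-375 had a frontal rho of -0.0012, muscle miRNAs (highest miR-1) 0.0246, mural and meningeal miRNAs (highest miR-143-3p) 0.129, oligodendrocyte miRNAs (highest miR-338) -0.0934, neuronal miRNAs 0.218 and blood miRNAs (highest miR-486) -0.334. The sum for blood ran from 126 to 355 CPM in sham libraries, 101 to 190 CPM at 1 day, 155 to 269 CPM at 1 week and 145 to 326 CPM with CsA. The part of these lists in the levels of the members was not tested beyond these values.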

How the data were processed

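The authors deposited raw counts for each pig miRNA in each library. Total RNA had been extracted with a kit for fixed tissue and libraries made with the QIAseq miRNA kit, per the labels' protocols. Trimmomatic 0.39 and cutadapt 1.9.1 were used, per the submitters' processing notes. Aligner, counter, annotation, build and any collapsing of unique molecular identifiers: not given in the sources used here. Counts may thus include copies of 1 molecule. Entries of 1 mature name, or of near-identical counts, were merged to the one with the highest total (94 of 542 entries removed). No 2 libraries agreed within sampling noise.

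The members, marker lists and tests were chosen with earlier results of these data known. Named besides the members are, in each region, the others with the highest and lowest rho with the members' score, and the most abundant marker of each list.

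Group differences were tested in edgeR 4.0.16 (quasi-likelihood) with R 4.3.3 (TMM, filterByExpr, Benjamini-Hochberg at 0.05 over all miRNAs tested, 2-sided), with the 4 groups of a region in 1 fit. Fits over both regions had the animal as block, since the same code marks the same animal; deviations from group means of both libraries of an animal correlated with a median of 0.276 over 52 animals, against -0.00438 for different animals. Each code was taken as 1 animal, although the series' design text gives another number of animals. Correlations used log2(CPM + 1) with 100000 permutations. The correlations had been planned over whole regions and were computed within sides of the gap in ssc-miR-429 once it was seen. Alternatives were RLE scaling, library totals, DESeq2 1.42.0, limma 3.58.1, no filter, covariates, unmerged entries, other pseudocounts and left-out libraries. The fits were tested on simulated data.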

Additional observations from a re-analysis of the deposited data

Results flagged for a closer look

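In the hippocampus and amygdala 2 libraries lay apart from the others of their group of 10. The rate of about 1 in 20 groups that chance flags is for normally distributed values. The CPM here are skewed and mostly low, so that rate need not hold. Examined were 24 sets of values (6 members in 4 groups of 9 or 10 libraries), of which 11 were flagged, all in these libraries. The members covary, so these are not 11 separate events.

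The injured 1 day library with replicate number 2 had the highest ssc-miR-429 (12.0 CPM, next 5.18), ssc-miR-182 (24.3, next 12.2), ssc-miR-183 (12.4, next 5.18), ssc-miR-141 (2.67, next 0.377) and ssc-miR-96-5p (1.46, next 0.377) of its group. The CsA library with replicate number 5, from an animal with no frontal lobe library, had the highest ssc-miR-183 (23.0 CPM, next 2.83), ssc-miR-182 (27.8, next 12.1), ssc-miR-429 (12.7, next 5.01), ssc-miR-141 (4.41, next 0.514), ssc-miR-200b (4.28, next 1.28) and ssc-miR-96-5p (2.27, next 0.152) of its group. These 11 values rest on 18 to 301 counts each.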

How the results depend on the processing

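The number of members that passed was 0 in all 5 frontal lobe comparisons with edgeR under RLE scaling, library totals alone, no filter, unmerged entries, either covariate, without the shallow libraries and without each library in turn, and with DESeq2. With limma on log2(CPM + 1), chosen after seeing the data, it was 5 between CsA and sham, where 108 of 284 miRNAs passed. Between 1 week and 1 day it was 4, where 83 of 284 miRNAs passed. In the hippocampus and amygdala it was 0 under all these alternatives, except that leaving out each library in turn gave 0 to 1 between 1 day and sham and 0 to 1 between CsA and sham. DESeq2 gave no adjusted p for the 3 members between CsA and 1 day in that region. For the CsA interaction DESeq2 gave 4 members, of which ssc-miR-200b was past the filter through the frontal lobe only; without the replicate block (the animal) it was 0 in all 3 interactions, as with the block. No paired analysis was possible within a region because its groups hold different animals.

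With the start of the animal code as covariate, 12 frontal lobe log2 fold changes, none of which passed the test in either fit, changed sign. Between 1 week and sham they became 0.71 for ssc-miR-200b, 0.064 for ssc-miR-141, 0.36 for ssc-miR-429, 0.040 for ssc-miR-182, 0.16 for ssc-miR-183 and 0.47 for ssc-miR-96-5p. Between 1 week and 1 day they became 0.11 for ssc-miR-200b, 0.17 for ssc-miR-141, 0.059 for ssc-miR-429, 0.0057 for ssc-miR-182 and 0.31 for ssc-miR-96-5p, and between 1 day and sham -0.11 for ssc-miR-141. With the log10 library total as covariate 5 log2 fold changes in the hippocampus and amygdala changed sign. Between 1 day and sham they became 0.36 for ssc-miR-429, 0.19 for ssc-miR-182 and 0.042 for ssc-miR-183, and between CsA and sham 0.19 for ssc-miR-182 and 0.21 for ssc-miR-183. The cause was not tested. Leaving out 1 library at a time moved the difference between 1 day and sham from -0.061 to 0.60 for ssc-miR-141 and from -0.014 to 0.76 for ssc-miR-96-5p, with both lowest values when replicate 4 at 1 day was left out. In the hippocampus and amygdala it moved the difference between 1 day and sham from -1.39 to 0.71 for ssc-miR-429, from -0.96 to 0.13 for ssc-miR-182 and from -1.81 to 0.13 for ssc-miR-183, and that between CsA and sham from -1.93 to 0.46, from -0.87 to 0.21 and from -2.15 to 0.49. The highest values came without sham replicate 4. Between 1 week and sham the highest values, also without it, were -0.37, -0.54 and -0.35.

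Over all miRNAs, with the log10 library total as covariate the calls fell from 127 to 56 (1 day and sham) and from 97 to 20 (CsA and sham) in the frontal lobe, and came to 57 and 2, against 48.6% and 20.3% of miRNAs without it, in the hippocampus and amygdala. With the code start they fell from 102 to 54 and from 85 to 19 between 1 week and 1 day. DESeq2 called 15 where edgeR called 0 (CsA and 1 day, hippocampus and amygdala), and 3 where it called 1 (1 week and sham). Scaling by library totals alone moved the median log2 fold change of all miRNAs in the frontal lobe from -0.04 to 0.24 (1 day and sham), from 0.02 to 0.22 (CsA and sham) and from 0.04 to -0.12 (1 week and 1 day), and the members kept their direction.

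The median r of the frontal lobe pairs stayed within its spread under the other pseudocounts, library totals alone, deviations from group means and without the shallow libraries (0.933 to 0.947 above the gap, 0.331 to 0.434 below it). For the relation to the library total, 3 relations passed without the shallow libraries, 1 of them over unchanged libraries. Depth limits the levels below the gap and in the hippocampus and amygdala, most of which rest on a few counts.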
